A study of Mus musculus with 113 samples.

Results

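Kinesins are motor proteins that burn ATP to move along microtubules, and a mouse cell makes many of them. The 46 genes described here are the kinesin heavy chains and kinesin light chains, taken as every symbol that starts with Kif and a digit or c, or is Klc and a digit, of 23739 gene symbols found over 4 expression tables of mouse embryonic stem (ES) cells induced to neural fate. By their known roles they were put into 14 mitotic, 14 transport, 6 ciliary and 12 other members. Mitotic kinesins build the spindle, align and pull chromosomes and complete cytokinesis, so that dividing cells need them. Transport kinesins carry vesicles, mitochondria and other cargo toward the plus ends of microtubules, which point to the axon tip, and several are made mainly in neurons. The comparison asked which of these motors went down and which went up as the cells left the pluripotent state.

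R1 mouse ES cells, which had been passaged once without feeder cells, were differentiated by 2 protocols. In SFEB culture (serum-free floating aggregates resembling embryoid bodies) the cells grew in GKSR medium, and from replating on day 6 in GMEM-N2 medium on coated dishes. In the adherent monolayer they grew in N2B27 medium on gelatin, also with replating on day 6. RNA of SFEB cell populations was read at 22 points from 0 to 216 h, 14 of a first series and 8 of a parallel series, and RNA of the monolayer at 15 points from 0 to 216 h, each point being 1 library. At 8 times of the parallel series 8 single cells each were also read, 64 in all. E14 ES cells, wild type (WT) or with a CRISPR/Cas9 deletion in *Fyn* (*Fyn* KO, 1 clone), were read on days 0 and 4 of neural induction, with 3 libraries per group. Nothing states that libraries of one group came from separate cultures, so p-values measure only the spread between these libraries.

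Levels are FPKM (fragments per kilobase of transcript, scaled to the mapped reads of the library), on which genes of different length can be compared, and the tables hold no read counts from which each library's depth could be taken. The SFEB values were corrected between the series by the authors. Early means up to 22 h (7 SFEB and 4 monolayer libraries) and late means 92 h or more (7 and 6 libraries). Since each time is 1 library, the spread within a window includes change with time. Differences are log2(FPKM + 1) of late minus early, given with the standard error (SE), tested with limma across all genes that reached 1 FPKM in 3 or more libraries, and called at a Benjamini-Hochberg adjusted p under 0.05. In populations, fewer cells of a type and less RNA per cell cannot be told apart.

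The labelled cell states were checked against markers. All 4 ES cell markers (*Pou5f1*, *Nanog*, *Zfp42*, *Esrrb*) were lower late than early in both protocols and all 4 neural progenitor markers (*Sox1*, *Pax6*, *Nes*, *Hes5*) were higher. In early SFEB libraries *Hes5* reached 1 FPKM only at 2 h (2.16 FPKM), so it met the filter through the late libraries. The 4 neuron markers in the SFEB table (*Tubb3*, *Dcx*, *Stmn2*, *Rbfox3*) summed to 135 to 251 FPKM in early libraries, with *Stmn2* alone at 85.1 to 188 FPKM, and to 92.8 to 836 FPKM in late ones. The 10 fibroblast markers summed to 134 to 1168 FPKM in early SFEB libraries and 18.8 to 128 FPKM in late ones, and to 165 to 722 and 56.1 to 248 FPKM in the monolayer. In the E14 libraries, whose levels may not be on the same scale, the same sum was 0.208 to 15.4 FPKM. Of the fibroblast markers, 10 of 10 fell in SFEB culture and 8 of 9 tested fell in the monolayer; their part in the kinesin differences was not tested.

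In SFEB culture most transport kinesins and few mitotic kinesins were called higher. Of 13 transport members measured, 10 rose, 2 fell and 1 was not called, with a median log2 difference of 1.19. Of 13 mitotic members, 4 fell, 2 rose and 7 were not called, with a median of −0.21. Over all 13256 genes tested 32.1% were called higher and 25.3% lower, and the median was 0.06. The mitotic count of 4 falls was thus near the share of all genes, and the transport count of 10 rises was far above it. All 38 members of the table passed the filter on low values. Transcript length moved with the windows: the median log2 of long minus short genes was −0.58 (2 h) to 0.03 in early libraries and 0.02 to 0.44 (216 h) in late ones. Transport transcripts had a median length of 6032 bases (2504 to 10233) and mitotic ones of 3423 bases (2063 to 8770). Transport members called higher had 2504 (*Klc1*), 3169 (*Klc2*) and otherwise 5291 to 10233 bases. Those called lower had 5532 (*Kif13b*) and 6032 bases (*Kif5b*), and the *Kif5b* call was lost without the 2 h library. The part of length in these differences was not tested.

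*Kif21a* showed the largest rise of any member. This kinesin-4 motor curbs microtubule growth in developing axons. Its level was 2.14 to 7.17 FPKM in the 7 early SFEB libraries (median 3.03) and 11.3 to 56.4 FPKM in the 7 late ones (median 28.7), with no overlap. The log2 difference was 2.53 ± 0.34 (SE; adjusted p = 2.25e-05). At 34 h it stood at 12.3 FPKM, above every library up to 22 h. *Kif1a*, the kinesin-3 motor that carries synaptic vesicle precursors, first went down, from 8.27 FPKM at 0 h of the first series to 1.85 FPKM at 22 h. The fibroblast marker sum was 1108 and 134 FPKM in these libraries, and the part of these cells was not tested. *Kif1a* then went up to 29.9 FPKM at 92 h and 45.0 FPKM at 216 h. Its early range of 1.85 to 8.27 FPKM (median 4.55) lay wholly below its late range of 16.3 to 45.0 FPKM (median 21.9), for a difference of 2.07 ± 0.26 (adjusted p = 1.2e-05).

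Kinesin-1, the main long-range carrier of the axon, is built from a pair of heavy chains of the Kif5 family and a pair of light chains of the Klc family, and its subunits did not move together. *Kif5b*, the heavy chain made by most cells, had the highest level of all transport members in early cells, 43.0 to 59.6 FPKM (median 48.0), and 37.7 to 47.9 FPKM late (median 44.1). These ranges overlapped, and the difference was −0.21 ± 0.09 (adjusted p = 0.0486). *Kif5c*, a heavy chain enriched in neurons, stood at 3.66 to 6.10 FPKM early (median 5.55) and at 5.58 to 84.3 FPKM late (median 24.3), a difference of 1.87 ± 0.45 (adjusted p = 0.00262). *Kif5a*, the other neuronal heavy chain, went from 1.73 to 3.99 FPKM (median 2.93) to 3.67 to 33.4 FPKM (median 11.7), a difference of 1.60 ± 0.37 (adjusted p = 0.00175). Both overlapped early libraries through the 106 h library alone. At 216 h *Kif5c* was thus above *Kif5b* (84.3 against 47.9 FPKM), whereas at 0 h of the same series it was at 3.66 against 45.2 FPKM.

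*Klc1*, the light chain that links Kif5 to cargo in neurons, was the most abundant member of all at the end of the course. It lay at 14.6 to 26.7 FPKM early (median 19.9), at 22.4 to 45.7 FPKM in 4 of the late libraries, and at 50.2, 78.8 and 133 FPKM at 126, 142 and 216 h. The difference was 1.19 ± 0.32 (adjusted p = 0.00562), and the groups overlapped through 106 h. *Klc2*, the second light chain, rose by less, 0.85 ± 0.14 (adjusted p = 0.000159), but with no overlap, from at most 10.1 to at least 12.8 FPKM.

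*Kif1b*, a relative of *Kif1a* that moves mitochondria and synaptic vesicle precursors, had 8.08 to 13.04 FPKM early (median 10.1) and 17.7 to 66.0 FPKM late (median 33.6), without overlap (1.60 ± 0.25, adjusted p = 8.21e-05). *Kif21b*, a neuronal kinesin-4, had 1.70 to 3.92 FPKM early (median 2.86) and 5.10 to 32.2 FPKM late (median 7.87), also without overlap (1.67 ± 0.33, adjusted p = 0.00057). The kinesin-2 subunits *Kif3a* and *Kif3c*, which serve cilia and axonal transport, rose by 1.01 ± 0.23 and 0.96 ± 0.32, while *Kif3b*, the usual partner of *Kif3a*, was not called (0.28 ± 0.13, adjusted p = 0.0818). *Kif13b*, a kinesin-3 of axon formation and vesicle transport, went the other way with −0.73 ± 0.18 (adjusted p = 0.00287).

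**Figure D1:**
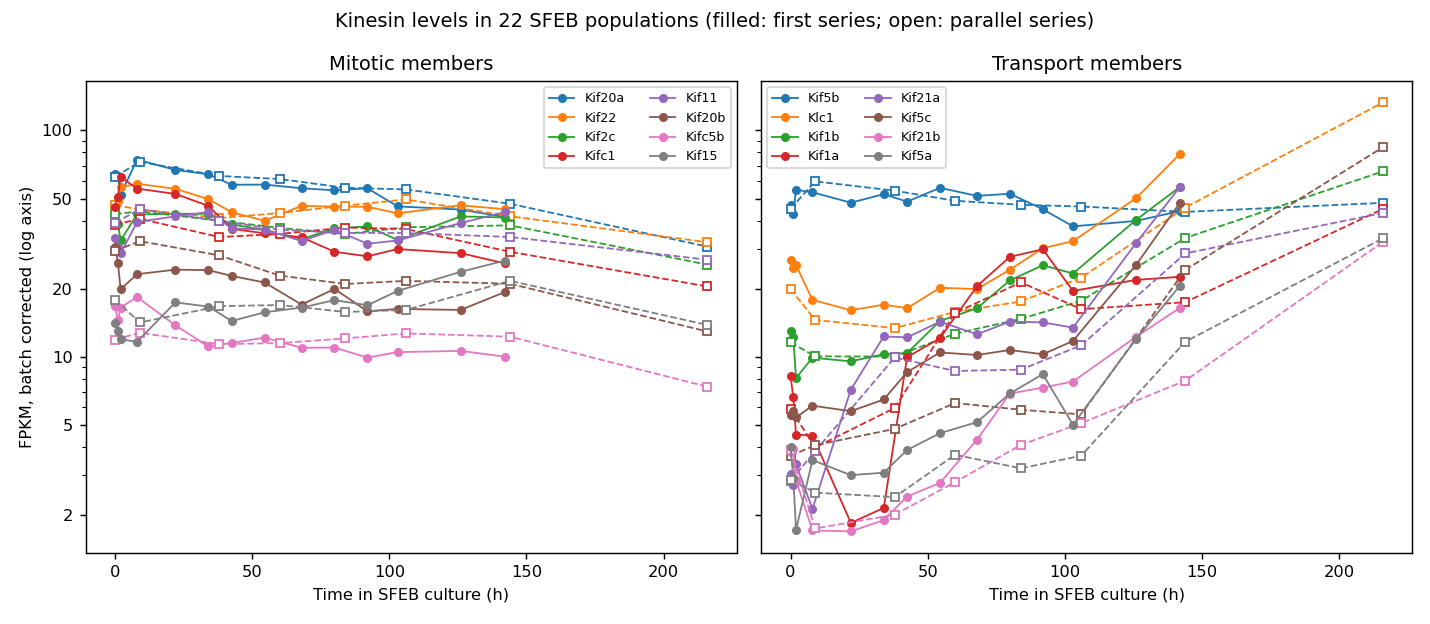
FPKM on a log axis against hours of SFEB culture for 8 mitotic members (left) and 8 transport members (right); each point is 1 library, filled for the first series and open for the parallel one. All transport members shown except *Kif5b* have their highest values at 142 h or later, *Kif5b* lies between 37.7 and 59.6 FPKM throughout, and the lines of the mitotic members stay closer to level.

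Among mitotic members *Kifc1*, a minus-end motor that focuses spindle poles, was the 1 member of 13 whose late range lay wholly below the early one, as in 11.6% of all genes. It was at 38.4 to 62.4 FPKM early (median 50.8) and at 20.5 to 36.7 FPKM late (median 28.7), a difference of −0.75 ± 0.12 (adjusted p = 0.000128). *Kifc5b*, a close copy of *Kifc1*, went from 11.9 to 18.4 FPKM (median 14.5) to 7.39 to 12.7 FPKM (median 10.5), a difference of −0.45 ± 0.12 (adjusted p = 0.00612). How reads were split between these copies is uncertain, so they may not be separate measurements. *Kif20b*, needed for cytokinesis and abscission, had 19.9 to 32.5 FPKM early (median 26.1) and 12.96 to 21.7 FPKM late (median 16.3; −0.59 ± 0.13, adjusted p = 0.000982). *Kif20a*, which brings the chromosomal passenger complex to the central spindle, was the most abundant mitotic member, with 52.1 to 74.4 FPKM early (median 64.4) and 30.7 to 55.6 FPKM late (median 46.2; −0.51 ± 0.13, adjusted p = 0.00331).

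Other spindle motors were not called. *Kif11*, which slides antiparallel microtubules to keep the spindle bipolar, had 28.6 to 45.0 FPKM early (median 39.1) and 26.9 to 43.6 FPKM late (median 33.9) (−0.09 ± 0.13, adjusted p = 0.579). *Kif22*, a chromosome-bound motor, had 44.9 to 58.2 FPKM early (median 48.9) and 32.1 to 49.6 FPKM late (median 44.9; −0.21 ± 0.09, adjusted p = 0.0745). *Kif2c*, which depolymerizes microtubules at kinetochores, had 32.7 to 44.0 FPKM early (median 42.6) and 25.6 to 41.8 FPKM late (median 37.7; −0.15 ± 0.11, adjusted p = 0.271). In all 3 the lowest late value was that of 216 h.

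*Kif15*, which can share the work of *Kif11* at the spindle, and *Kif4*, which organizes mitotic chromosomes and the central spindle, went up. *Kif15* stood at 11.7 to 17.9 FPKM early (median 14.2) and at 13.8 to 26.6 FPKM late (median 19.6), a difference of 0.44 ± 0.15 (adjusted p = 0.0211). It peaked at 142 h and was back at 13.8 FPKM at 216 h. Its transcript is AT-rich (42.7% GC), and the median log2 of genes low in GC minus genes high in GC was −0.26 and −0.27 at 1 and 2 h and highest, at 0.21, at 142 h; the part of base composition was not tested. *Kif4* had the same course, with 22.5 FPKM at 142 h and 13.5 FPKM at 216 h, and a difference of 0.38 ± 0.11 (adjusted p = 0.00723). *Kif14*, *Kif18a*, *Kif18b* and *Kif23* were not called, with differences of −0.30 to −0.08.

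Summed over the 13 measured members, the mitotic kinesins had 352 to 418 FPKM in early SFEB libraries (median 387) and 234 to 361 FPKM late (median 338). The transport kinesins had 130 to 150 FPKM early (median 134) and 169 to 588 FPKM late (median 268). The transport sum was 0.318 to 0.388 of the mitotic sum early and 0.468 to 2.52 late, and it passed the mitotic sum only at 142 h (ratio 1.20) and 216 h (ratio 2.52). In the first series the transport sum was 193 FPKM at 103 h, 289 FPKM at 126 h and 415 FPKM at 142 h. Of the 13 transport members 6 lay wholly higher late (*Kif1a*, *Kif1b*, *Kif21a*, *Kif21b*, *Kif3a*, *Klc2*), as in 16.7% of all genes. In the parallel series, between 144 and 216 h and so across the replating on day 6, the mitotic sum went from 338 to 234 FPKM and the transport sum from 268 to 588 FPKM.

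**Figure D2:**
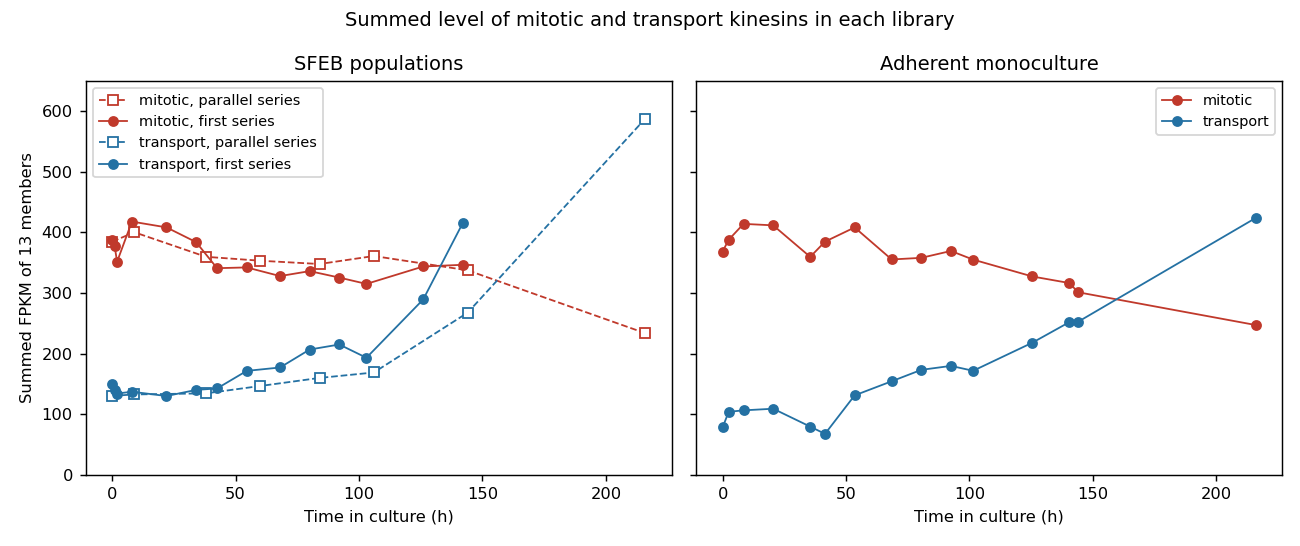
Summed FPKM of the 13 mitotic and the 13 transport kinesins against hours of induction, for SFEB populations and the adherent monolayer, 1 point per library. In SFEB culture the transport sum lies below the mitotic sum until 126 h and at 144 h of the parallel series. It lies above the mitotic sum at 142 h and 216 h, and in the monolayer at 216 h alone.

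Levels of some members were not the same in the 2 SFEB series at like times. At 103 h of the first series *Kif5c* had 11.8 FPKM, against 5.58 FPKM at 106 h of the parallel series, and at 142 h it had 47.9 FPKM, against 24.3 FPKM at 144 h. *Kif21a* differed likewise, with 56.4 FPKM at 142 h and 28.7 FPKM at 144 h. Within the first series alone 10 transport members were higher and 4 mitotic members were lower, the same genes as in both series together. Within the parallel series alone, with 2 early and 3 late libraries, *Kif1a* and *Kif21a* were called higher and no mitotic member was called, at standard errors that left differences such as those of *Kif5c* (2.31 ± 0.94, adjusted p = 0.161), *Klc1* (1.55 ± 0.66, adjusted p = 0.175) and *Kif20a* (−0.63 ± 0.27, adjusted p = 0.173) uncalled. *Kif15* stood at 0.08 ± 0.25 there (adjusted p = 0.847). The median difference there was 1.55 for transport and −0.33 for mitotic members. *Kif5b* was not called in the first series alone (−0.23 ± 0.12, adjusted p = 0.111) or without the 2 h library (−0.19 ± 0.08, adjusted p = 0.0703).

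Outside the 2 classes the motors of cilia and others were mixed. *Kif7*, a Hedgehog regulator at the cilium tip, had 3.89 to 5.13 FPKM early (median 4.204) and 4.42 to 6.43 FPKM late (median 6.13; 0.37 ± 0.11, adjusted p = 0.00731). *Kif24*, which restrains cilium assembly at the mother centriole, had 1.93 to 4.16 FPKM early (median 3.42) and 4.75 to 6.06 FPKM late (median 5.28), without overlap (0.59 ± 0.13, adjusted p = 0.00123). *Kifc3*, a minus-end motor of cell junctions and the Golgi, showed the largest fall of all members. It was at 12.03 to 21.2 FPKM early (median 17.04) and at 1.68 to 7.46 FPKM late (median 2.96), a difference of −2.11 ± 0.21 (adjusted p = 1.24e-06). It fell to its lowest value, 1.26 FPKM, at 80 h and was higher again at 216 h. The fibroblast marker sum fell over the same course. At 0 and 22 h of the first series *Kifc3* had 18.5 and 16.96 FPKM and the marker sum 1108 and 134 FPKM, and both had their highest late value at 216 h (7.46 and 128 FPKM). The part of these cells in the difference was not tested.

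*Kif26a*, a kinesin-like protein that lacks motor activity, had 1.31 to 3.98 FPKM early (median 1.80) and 3.12 to 6.90 FPKM late (median 3.77; 0.61 ± 0.21, adjusted p = 0.0213). *Kif1c*, a kinesin-3 that carries cargo to cell protrusions, had 11.2 to 19.3 FPKM early (median 13.3) and 13.4 to 23.0 FPKM late (median 19.1; 0.39 ± 0.14, adjusted p = 0.0301). *Kif2a*, a microtubule depolymerase, was also called higher (0.26 ± 0.10, adjusted p = 0.0398). In the first series alone none of these 3 was called, with adjusted p of 0.156 for *Kif26a*, 0.122 for *Kif1c* and 0.0581 for *Kif2a*, and without the 2 h library only *Kif26a* was (adjusted p = 0.0383). The remaining 6 of 10 members of this class (*Kif13a*, *Kif16b*, *Kif26b*, *Kifc2*, *Klc3*, *Klc4*) were not called, with differences of −0.35 to 0.27. *Kifc2* had its highest level, 10.0 FPKM, in the middle of the course at 42.5 h.

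The promoter sequences of the members were read where RefSeq gives them (assembly GRCm38.p6, 250 bases before to 50 after the start), which was so for 36 of the 46 genes. They were searched on both strands for TTTGAA (the cell cycle genes homology region, CHR, a repressor element of genes that peak in G2 and mitosis), CCAAT (a box bound by NF-Y) and GGGCGG (the GC box). The CHR letters stood in 11 of 13 mitotic promoters (84.6%) and in 1 of 9 transport promoters (11.1%), against 20.2% of the promoters of all 27025 genes. CCAAT stood in 69.2% of mitotic, 33.3% of transport and 41.1% of all promoters, and the GC box in 46.2%, 77.8% and 38.2%. In 9 mitotic promoters the CHR letters began within 50 bases of the start, as in 1 of 9 transport promoters and in 5.72% of all genes; this distance was chosen after the positions were seen. A match is a description of the letters and not a site shown to act, and mitotic members with these letters include those that fell, those that rose and those that were not called.

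The 150 bases before the start are shown for 3 spindle motors with the CHR letters near the start, for the copies *Kifc1* and *Kifc5b*, which share a pair of CCAAT boxes, and for *Klc1* as the transport member with the highest late level. Capitals mark CHR, CCAAT or GC box letters on either strand, each sequence is written in the direction of its gene, and all lie upstream of the annotated start. Their positions in GRCm38.p6 are chr19:37376232-37376381 (plus strand) for *Kif11*, chr9:122950931-122951080 (plus) for *Kif15*, chr7:127042421-127042570 (minus) for *Kif22*, chr17:33890634-33890783 (minus) for *Kifc1*, chr17:26916941-26917090 (plus) for *Kifc5b* and chr12:111758718-111758867 (plus) for *Klc1*.
Kif11: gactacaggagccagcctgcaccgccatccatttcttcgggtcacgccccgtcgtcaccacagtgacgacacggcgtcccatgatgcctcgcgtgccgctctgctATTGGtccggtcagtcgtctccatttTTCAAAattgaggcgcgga
Kif15: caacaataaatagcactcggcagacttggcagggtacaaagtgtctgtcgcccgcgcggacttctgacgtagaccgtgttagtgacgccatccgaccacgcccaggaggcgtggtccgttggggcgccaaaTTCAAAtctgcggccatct
Kif22: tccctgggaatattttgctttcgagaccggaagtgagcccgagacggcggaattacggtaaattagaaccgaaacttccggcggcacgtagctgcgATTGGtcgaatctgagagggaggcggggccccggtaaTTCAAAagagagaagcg
Kifc1: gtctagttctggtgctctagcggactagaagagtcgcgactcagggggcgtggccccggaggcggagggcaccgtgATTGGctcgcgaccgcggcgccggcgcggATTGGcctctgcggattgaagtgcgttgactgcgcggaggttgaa
Kifc5b: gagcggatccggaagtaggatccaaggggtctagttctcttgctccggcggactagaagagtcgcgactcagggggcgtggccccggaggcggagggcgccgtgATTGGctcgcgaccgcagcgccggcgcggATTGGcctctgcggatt
Klc1: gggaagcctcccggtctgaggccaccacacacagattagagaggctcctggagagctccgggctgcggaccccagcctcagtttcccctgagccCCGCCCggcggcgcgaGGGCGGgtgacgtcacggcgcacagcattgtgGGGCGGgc
The CHR begins 19 bases before the start in *Kif11* and *Kif15* and 17 bases before it in *Kif22*. In *Kifc1* and *Kifc5b* it lies just after the start, at bases 2 and 30, and so outside the stretch shown. *Klc1* has 3 GC boxes and neither of the other motifs in this stretch.

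The adherent monolayer gave an independent set of libraries without any shared control. Of 13 transport members tested, 11 were higher, 1 was lower and 1 was not called, with a median log2 difference of 1.299. Of 13 mitotic members, 6 were lower, 1 was higher and 6 were not called, with a median of −0.33. Over all 12726 genes tested 34.9% were higher and 25.3% lower, with a median of 0.10. All 10 transport members that rose in SFEB culture also rose here, together with *Kif3b*, and 3 mitotic members (*Kifc1*, *Kifc5b*, *Kif20a*) fell in both. No member was called in opposite directions. The median log2 of long minus short genes was −0.26 to −0.17 in the 4 early monolayer libraries and 0.05 to 0.21 in the 6 late ones, and its part was not tested.

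*Kif1a* had the largest rise of the transport members. Its 4 early values were 2.74, 2.17, 1.54 and 0.901 FPKM at 0, 2.5, 8.5 and 20.5 h, and its 6 late values were 12.9 to 38.7 FPKM (median 18.8), for a difference of 2.94 ± 0.29 (adjusted p = 6.14e-06). The initial decline was thus present in this protocol as well. The fibroblast marker sum in these early libraries was 722, 618, 425 and 165 FPKM, and the part of these cells was not tested. *Kif21a* had 1.42, 2.07, 2.31 and 3.73 FPKM early and 9.88 to 39.1 FPKM late (median 22.2; 2.73 ± 0.37, adjusted p = 6.88e-05). *Kif5c* had 2.44, 2.46, 3.24 and 4.01 FPKM early and 8.23 to 57.1 FPKM late (median 19.2; 2.27 ± 0.43, adjusted p = 0.000834). *Klc1* had 15.8 to 19.3 FPKM early and 27.3 to 99.6 FPKM late (1.299 ± 0.29, adjusted p = 0.00245). None of these ranges overlapped, and the late maximum was at 216 h except for *Kif21a*, which peaked at 144 h.

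*Kif1b* (1.75 ± 0.21), *Kif21b* (1.88 ± 0.30) and *Kif5a* (1.28 ± 0.26) rose without overlap too. In all, 10 of 13 transport members lay wholly higher late, as did 29.2% of all genes. *Kif13b* lay wholly lower (−1.02 ± 0.14, adjusted p = 6.88e-05), as did 4 of 13 mitotic members and 19.8% of all genes. Among these *Kifc1* had 63.3, 64.0, 70.7 and 59.6 FPKM early and 30.6 to 43.1 FPKM late (median 38.0; −0.77 ± 0.10, adjusted p = 7.16e-05). *Kif2c* had 45.2 to 46.5 FPKM early and 30.9 to 37.4 FPKM late (−0.39 ± 0.07, adjusted p = 0.000753), and *Kif20a* 64.8 to 76.8 and 39.0 to 63.0 FPKM (−0.39 ± 0.13, adjusted p = 0.0201). *Kif18b*, which shortens astral microtubules, was the fourth (−0.33 ± 0.13, adjusted p = 0.0444). Without the 0 h library *Kif20a* (−0.35 ± 0.14, adjusted p = 0.0609), *Kif18b* (−0.31 ± 0.15, adjusted p = 0.0952) and *Kif14* (−0.34 ± 0.15, adjusted p = 0.0754) were not called. *Kif22* was not called (−0.18 ± 0.09, adjusted p = 0.0936), nor was *Kif11* (−0.17 ± 0.23) or *Kif15* (0.24 ± 0.21). *Kif4* rose here too (0.46 ± 0.09, adjusted p = 0.00139).

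*Kifc3* fell again, from 11.1 to 17.02 FPKM to 1.75 to 8.76 FPKM (−1.59 ± 0.34, adjusted p = 0.00171), with the same late recovery at 144 and 216 h (7.50 and 8.76 FPKM). *Kif1c* rose by 0.59 ± 0.12 (adjusted p = 0.00153). *Kif26a* rose by 1.56 ± 0.14 from early values of 1.21, 0.828, 1.05 and 0.954 FPKM. It met the filter on low values only with the late libraries, so no p-value is given for it. *Kif7* rose by 0.64 ± 0.14 (adjusted p = 0.00189), whereas *Kif24* was not called (0.34 ± 0.17, adjusted p = 0.0976). The ciliary members *Kif6* and *Kif19a* did not pass the filter; they were at 0.0452 to 0.0838 and 0.0853 to 0.159 FPKM early and reached 1.37 and 1.54 FPKM at 144 h.

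**Figure D3:**
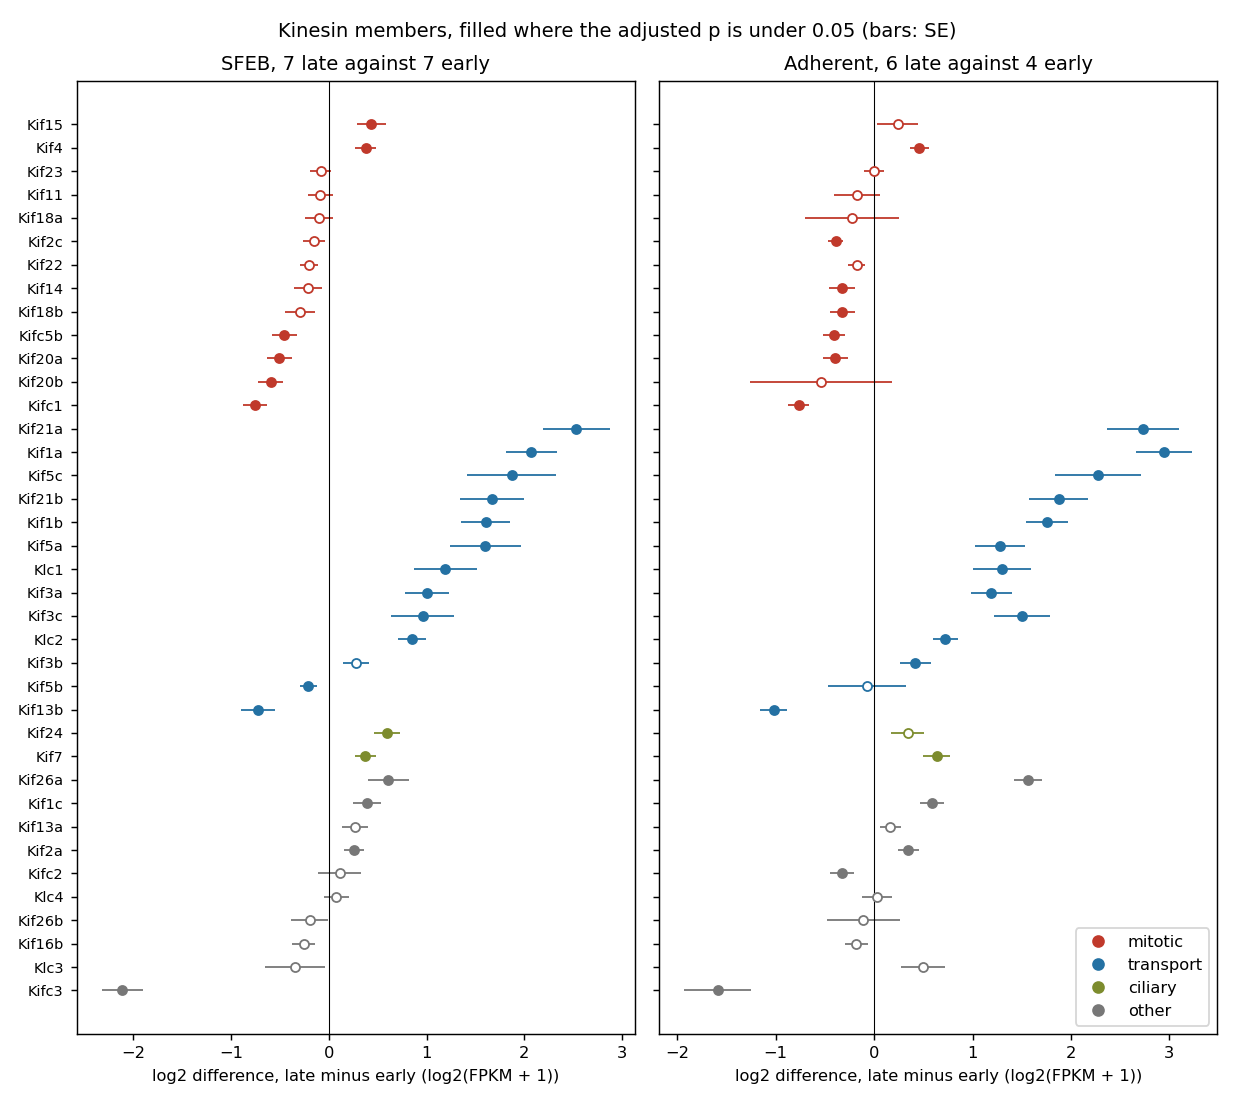
Log2 difference of late minus early (log2(FPKM + 1) scale, with SE) for each tested member, in SFEB culture and in the adherent monolayer, by class. Filled points are called. Most transport members lie to the right of 0, with *Kif13b* at −0.73 and −1.02, and mitotic members lie between −0.77 and 0.46.

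In 4 monolayer libraries (0, 35.5, 41.5 and 216 h) some members with AT-rich transcripts read low. *Kif20b*, with a GC content of 39.4%, had 1.13, 0.624, 0.668 and 1.12 FPKM in these and 2.08 FPKM at 140.5 h, against 9.19 to 21.0 FPKM in the other libraries. *Kif5b*, with 41.1% GC, had 9.11, 8.52, 2.84 and 11.7 FPKM in the same 4 libraries against 22.6 to 43.1 FPKM in the others. *Kif18a*, *Kif11* and *Kif15* were likewise below every other library in these 4, but *Kif2a*, with 38.6% GC, and *Kif3a*, with 43.1%, were so only in the first 3 and stood at 21.4 and 23.5 FPKM at 216 h. The third of genes lowest in GC minus the third highest in GC gave a median log2 of −0.27, −0.39, −0.64 and −0.18 in these libraries and of −0.16 to 0.17 in the others. *Kif20b* (−0.54 ± 0.72, adjusted p = 0.536) and *Kif5b* (−0.07 ± 0.40, adjusted p = 0.889) were not called with these libraries in the fit. Without the 0 h library 3 mitotic members (*Kif2c*, *Kifc1*, *Kifc5b*) were called lower and 11 transport members higher; without both the 0 h and the 216 h library the counts were the same and *Kif5b* was called lower (−0.34, adjusted p = 0.0422). The part of base composition in these values was not tested.

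Genes that work with the motors were listed by role. Of 22 division partners (spindle, kinetochore and cytokinesis genes), 8 fell and 1 rose in SFEB culture (median −0.16) and 7 fell and none rose in the monolayer (median −0.13). Of all genes 25.3% were called lower in each protocol. The largest differences in SFEB culture were those of *Hmmr*, a spindle assembly factor (−0.74 ± 0.14), *Anln*, an actin-binding protein of the cleavage furrow (−0.74 ± 0.13), and *Aurka*, a spindle pole kinase (−0.59 ± 0.12). In the monolayer they were those of *Ect2*, which activates RhoA for cytokinesis (−0.85 ± 0.16), *Mki67*, a proliferation marker that was not called (0.69 ± 0.60), and *Birc5*, a chromosomal passenger protein (−0.56). Of 24 transport partners (adaptors, dynein subunits and microtubule-associated proteins) 19 were tested in each protocol. In SFEB culture 10 rose and 2 fell (median 0.53), and in the monolayer 8 rose and 1 fell (median 0.39), where 32.1% and 34.9% of all genes rose. *Fez1*, a kinesin-1 adaptor, *Dcx*, a microtubule-binding protein of young neurons, and *Mapk8ip2*, a scaffold carried by kinesin-1, led in both, with 2.47 ± 0.39, 2.42 ± 0.80 and 2.04 ± 0.32 in SFEB culture and 3.29 ± 0.20, 3.28 ± 0.61 and 1.77 ± 0.25 in the monolayer.

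In E14 cells days 0 and 4 were compared. In the knockout check, *Fyn* was at 3.21, 2.74 and 4.00 FPKM in WT and 0.598, 0.598 and 1.10 FPKM in *Fyn* KO at day 0 (adjusted p = 0.0601), and at 9.44, 4.54 and 6.76 against 1.19, 1.13 and 1.58 FPKM at day 4 (adjusted p = 0.0193). Of 3 progenitor markers tested, 2 rose by day 4 in WT and 0 in *Fyn* KO, and all 4 ES cell markers fell in both. None of the 3 progenitor markers was called between genotypes at day 4 or in the change over 4 days. In WT at day 4 *Sox1* was at 47.2, 7.81 and 11.6 FPKM and *Pax6* at 26.8, 3.71 and 6.77 FPKM. At day 0 *Pax6* was at most 0.496 FPKM, so it met the filter through day 4 alone. Of 46 members 37 passed the filter, 13 of them mitotic and 13 transport. In WT cells 5 transport members were higher and 1 was lower at day 4 (median 0.43), and 2 mitotic members were lower and none higher (median 0.01); over all 12257 genes tested 15.5% were higher and 10.3% lower (median 0.08). In *Fyn* KO cells 4 transport members were higher (median 0.14) and 2 mitotic members lower (median −0.16), where 11.8% of all genes were higher and 7.56% lower (median 0.05). With the replicate number as a block in WT, 1 mitotic member was lower, since *Kifc5b* then had an adjusted p of 0.0522 in limma. The same block called 6 transport members higher, with *Kif3a* added (adjusted p = 0.0498), and the ciliary *Kif7* (0.65 ± 0.18, adjusted p = 0.0499).

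*Kif1a* and *Kif21a* were below 1 FPKM in all 6 day 0 libraries and passed the filter through day 4 alone, so that their p-values are given without the filter on low values. Without these 2, 3 of 11 transport members were higher and 1 lower in WT (median 0.40), and 2 of 11 were higher in *Fyn* KO (median 0.08). In WT *Kif1a* was at 0.405, 0.0694 and 0.0636 FPKM at day 0 and at 34.0, 14.4 and 19.9 FPKM at day 4, a log2 difference of 4.26 ± 0.38 (adjusted p = 0.000497). In *Fyn* KO it was at 0.118, 0.064 and 0.226 FPKM and then at 8.26, 15.01 and 27.6 FPKM (3.84 ± 0.38). *Kif21a* went from 0.399, 0.525 and 0.530 FPKM to 14.3, 4.95 and 8.86 FPKM in WT (2.70 ± 0.29, adjusted p = 0.000879) and from 0.945, 0.501 and 0.872 FPKM to 7.57, 7.05 and 9.48 FPKM in *Fyn* KO (2.35 ± 0.29). *Klc2* (1.06 ± 0.20 in WT, 0.69 ± 0.20 in *Fyn* KO) and *Kif5c* (0.73 ± 0.19 and 1.29 ± 0.19) were called higher in both genotypes as well. *Klc1* and *Kif1b*, which rose late in R1 cells, were not called in WT (0.40 ± 0.20 and 0.36 ± 0.20), and *Kif5b* was not called in either genotype.

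*Kifc1* was again the mitotic member that fell. Its values were 50.02, 62.5 and 58.9 FPKM at day 0 and 29.0, 32.1 and 36.3 FPKM at day 4 in WT (−0.80 ± 0.13, adjusted p = 0.00167), and 51.2, 60.6 and 54.5 and then 34.4, 36.9 and 36.1 FPKM in *Fyn* KO (−0.61 ± 0.13, adjusted p = 0.00758). *Kifc5b* was the other (−0.48 ± 0.13 and −0.52 ± 0.13). *Kif20a* was at 44.7, 39.3 and 38.2 FPKM and then 35.4, 37.3 and 42.3 FPKM in WT (−0.08 ± 0.14, adjusted p = 0.704), and *Kif11*, *Kif22* and *Kif2c* were also not called. The others called higher in both genotypes were *Kif1c*, *Klc3*, a light chain, and *Kif26a*. At day 0 *Kif26a* reached 1 FPKM only in *Fyn* KO libraries (1.64 and 1.45 FPKM), so it met the filter only with day 4. *Klc3* went from 0.670, 1.61 and 1.26 FPKM to 2.29, 7.70 and 11.8 FPKM in WT (1.74 ± 0.51, adjusted p = 0.0269). Division partners (22 tested) gave 2 lower and 2 higher in WT and 2 lower and 1 higher in *Fyn* KO, near the shares of all genes given above. Transport partners (20 tested) gave 6 higher and 1 lower in WT, where 15.5% of all genes were higher and 10.3% lower. In *Fyn* KO they gave 4 higher and 3 lower, where 11.8% of all genes were higher and 7.56% lower. *Mapt*, which encodes tau, was the member of this list that fell in WT (−2.39 ± 0.28). *Map1b*, a microtubule-associated protein of growing axons, had the largest rise in WT (2.69 ± 0.34).

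**Figure D4:**
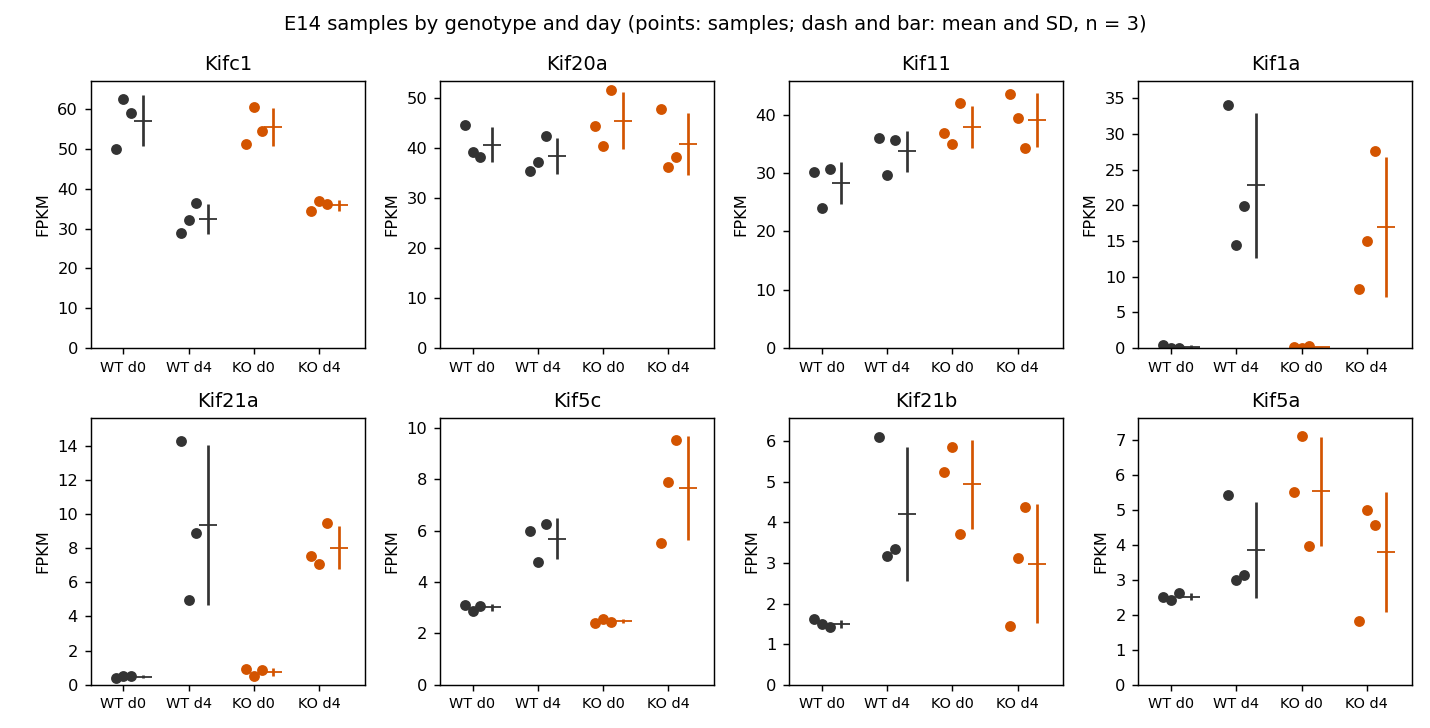
FPKM of single kinesins in E14 cells on days 0 and 4, with 3 libraries per group as points and the mean and SD as a dash and a bar. *Kif1a* and *Kif21a* rise from under 1 FPKM in both genotypes, *Kifc1* falls in both, and *Kif21b* at day 0 is higher in the 3 *Fyn* KO libraries (3.72 to 5.85 FPKM) than in the 3 WT libraries (1.42 to 1.61 FPKM).

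No kinesin was called between the genotypes. At day 0 none of 37 members passed in limma, where 0.0408% of all genes were higher and 0.131% lower in *Fyn* KO, and 9 members had an unadjusted p under 0.05 (24.3%, against 14.6% of all genes). At day 4 none passed, where 0.00816% of genes were higher and 0.0653% lower, and 4 members had an unadjusted p under 0.05 (10.8%, against 12.1%). The difference between genotypes in the change over 4 days was called for 0.0% of genes in either direction; 3 members (8.11%) and 4.38% of all genes had an unadjusted p under 0.05. These comparisons share libraries with each other and with those over time. *Kif21b* was the member that differed most at day 0. It was at 1.61, 1.49 and 1.42 FPKM in WT and 5.24, 5.85 and 3.72 FPKM in *Fyn* KO, without overlap, yet the difference of 1.23 ± 0.30 had an adjusted p of 0.12. At day 4 it was at 6.11, 3.17 and 3.34 FPKM in WT and 1.45, 3.12 and 4.39 FPKM in *Fyn* KO, which overlap, and the interaction of −1.64 ± 0.42 had an adjusted p of 0.997. *Kif5a* at day 0 was at 2.50, 2.41 and 2.62 against 5.50, 7.10 and 3.96 FPKM (0.86 ± 0.30, adjusted p = 0.217).

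The remaining 9 members did not reach 1 FPKM in 3 E14 libraries. *Kif12* and the pseudogene *Kif4-ps* were listed at 0 in all 12, and *Kif2b*, a mitotic depolymerase, in 11. The ciliary members *Kif6*, *Kif9*, *Kif19a* and *Kif27* and the neuronal kinesin-2 *Kif17* reached at most 0.760 FPKM in any E14 library, and *Kif26b* at most 0.212 FPKM.

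In single SFEB cells values are RPKM that the authors had quantile-normalized between cells. Mitotic members were above 0.5 RPKM in a median of 21 of 64 cells (3 to 62), transport members in 18.5 (7 to 44) and the class of others in 23 (6 to 42). *Kif22* was above 0.5 RPKM in 62 of 64 cells, *Kif20a* in 61 and *Kif2c* in 57, whereas *Kifc1* was in 12 and *Kifc5b* in 3. Of the 12 transport members in the table *Kif5b* was the most widespread (44 cells), followed by *Klc1* (37) and *Kif21a* (25). At 0 and 9 h *Klc1* was detected in 7 of 16 cells (exact 95% interval 19.8% to 70.1%) and at 144 and 216 h in 15 of 16 (69.8% to 99.8%). *Kif21a* was detected in 3 of 16 (4.05% to 45.6%) and then in 13 of 16 (54.4% to 96.0%), and *Kif11* in 10 of 16 (35.4% to 84.8%) and then in 2 of 16 (1.55% to 38.3%). *Kif20a* was in 16 of 16 cells early and in 15 of 16 late. Some members of these classes differed the other way, with *Kif21b* in 6 and then 3 of 16 cells and *Kif4* in 4 and then 9. *Klc3* was in 9 of 16 and then in 0 of 16, for which the exact interval reaches 20.6% and 3 counts would be 18.8%. These intervals cover counting error only, the cells of a time are not replicates, and the median number of genes above 0 per cell ran from 6145 at 144 h to 8972 at 0 h.

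A cell had a median of 7 mitotic and 3 transport kinesins detected at 0 h, and of 5 and 5 at 216 h. In a linear trend over the 8 time points, with the mean of 8 cells as 1 value, none of 35 members was called in limma, where 1.67% of all 11449 genes rose and 1.07% fell; 6 members had an unadjusted p under 0.05 (17.1%, against 17.2% of all genes). *Klc1* changed by 0.45 ± 0.15 per 100 h on the log10(RPKM + 1) scale (adjusted p = 0.086), *Kif21a* by 0.39 ± 0.13 (adjusted p = 0.103), *Kif22* by −0.38 ± 0.16 (adjusted p = 0.192) and *Kif20a* by −0.35 ± 0.14 (adjusted p = 0.186). Of the partners *Fez1* alone was called (0.61 ± 0.14, adjusted p = 0.0163). Without the 216 h time point 0 of 11441 genes were called, so this call was lost. With log10 of the mean RPKM of the cells 7 genes rose and 11 fell, against 191 and 122 in the main fit.

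**Figure D5:**
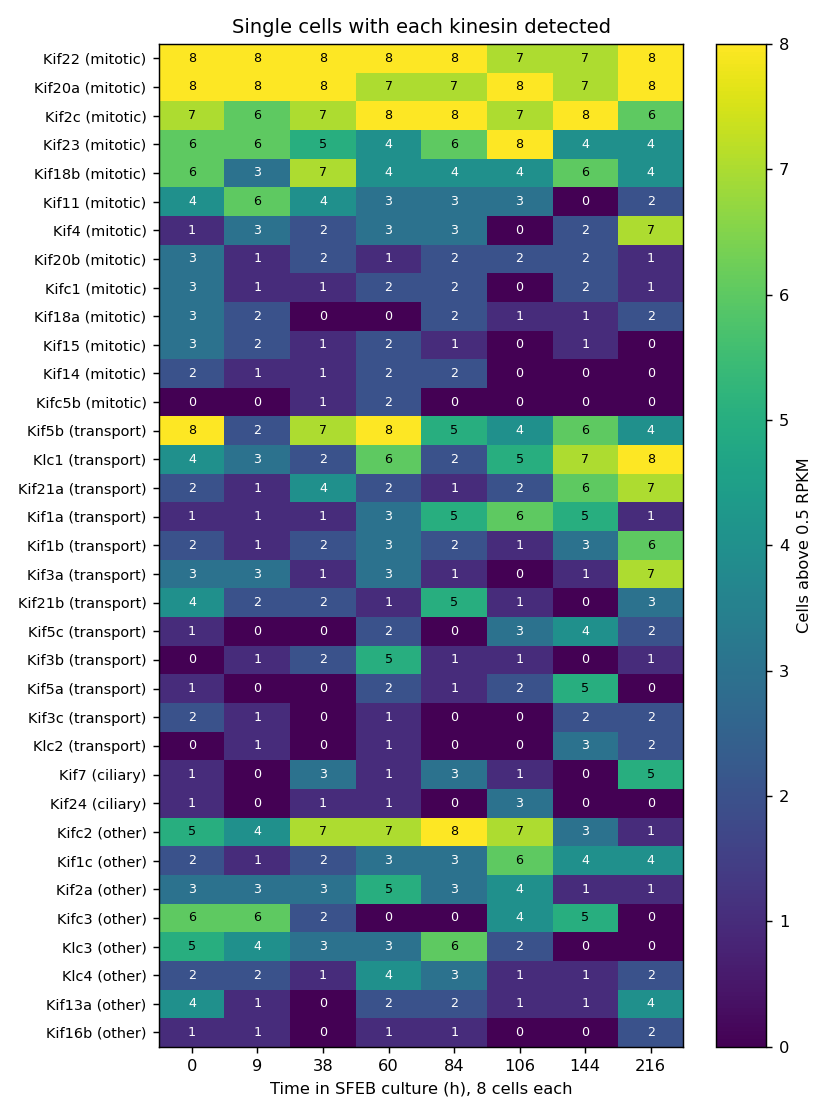
Number of single SFEB cells, of 8 at each time, in which each of the 35 members (lines, by class) was above 0.5 RPKM; the color and the printed number give the count. *Kif22* and *Kif20a* are in 7 or 8 cells at every time, and *Klc1* is in 4 cells at 0 h and 8 at 216 h.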

How the data were processed

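RNA was read from 22 SFEB populations, 15 monolayer populations, 64 single cells and 12 E14 populations, grouped by the submitters' labels. The authors made libraries with the Nextera XT kit. The submitters' processing notes name TopHat2 2.0.8b, Cufflinks 2.1.1 and the builds mm9 and mm10, and the study's methods name other versions. No test therefore compared levels between tables, and levels or sums given for more than 1 table may not share a scale. FPKM values per gene were deposited by the authors for the monolayer and E14 samples. The SFEB table as deposited holds FPKM that the authors had corrected between series with ComBat, in which 1256 of 297902 values were below 0 and were set to 0 here (0 of them in kinesins). For single cells the authors deposited log10 values of RPKM + 1 after quantile normalization between cells, so detection is read on normalized values. The study states a minimum of reads per library, but no deposited file gives read counts, so the depth of each library and its precision are not given here.

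Differences were computed with limma 3.58.1 (R 4.3.3) on log2(FPKM + 1) with a trended variance, over genes that reached 1 FPKM in 3 or more libraries of the fit, two-sided, with Benjamini-Hochberg adjustment over all genes tested and a threshold of 0.05. The pseudocount of 1 understates changes of low genes. SFEB fits had the series as a term, and the 12 E14 libraries shared 1 estimate of the spread. Single cells were averaged per time and fitted with a linear trend. The script was tested on simulated data. Same-numbered E14 libraries deviated together between the days in WT (r = 0.217, 0.220 and 0.263), and between the genotypes at day 4 (0.1439, 0.2820 and 0.2432), but not between the days in *Fyn* KO (0.0373, 0.1085 and −0.0166) or between the genotypes at day 0 (0.0770, 0.3782 and −0.0956), and the labels do not say what a number shares.

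Members and lists were chosen with earlier results of these data known. Given in full were, of the mitotic and of the transport members, the 5 with the highest mean SFEB level and the 3 others with the largest SFEB difference, and up to 3 with the largest difference in the other classes. Other members named with values, and the choice of examples within a class, followed their values. Alternatives were another pseudocount, no filter, quantile normalization, a linear trend, single series, the replicate block, another average of the cells and leaving out libraries; leaving out the 2 h SFEB library and the 0 h monolayer library, alone or with that of 216 h, was chosen after seeing the data.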

Additional observations from a re-analysis of the deposited data

Results flagged for a closer look

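Within the time windows of 4 to 8 libraries, 11 kinesin values stood far from the others by Dixon's test at the 95% level, over 63 groups tested in each of 2 tables (3 windows of the 21 kinesins described in full, which were chosen for level or difference; the others were not tested); chance gives about 1 such value in 20 groups. In SFEB culture these were *Kif21a* at 22 h (7.17 FPKM, above the early libraries), *Kifc1* and *Kifc3* at 34 h (46.5 and 8.18 FPKM, above the other middle libraries), and *Kif21b* and *Kif26a* at 216 h (32.2 and 6.90 FPKM, above the other late libraries). In the monolayer 5 transport members stood above the other late libraries at 216 h, which were *Klc1* (99.6 FPKM), *Kif1b* (53.3 FPKM), *Kif5c* (57.1 FPKM), *Kif21b* (26.3 FPKM) and *Kif5a* (23.5 FPKM). *Kif24* at 144 h (2.90 FPKM) stood below the other late monolayer libraries.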

How the results depend on the processing

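In SFEB culture 4 mitotic members were lower; the count was 0 in the parallel series alone and 8 in a linear trend over all libraries. The 2 mitotic members that were higher, and the 10 transport members that were higher, came to 0 and 2 in the parallel series alone. The 2 transport members that were lower came to 1 without the series term, in the first series alone, in the linear trend and without the 2 h library, and to 0 in the parallel series. In the monolayer the 6 mitotic members lower came to 3 without the 0 h library and 3 without the 0 h and 216 h libraries, where the 1 transport member lower came to 2. In WT E14 cells the 2 mitotic members lower came to 1 with the replicate block and to 1 to 2 when single libraries were left out, the 5 transport members higher to 6 with the block and to 3 to 5 when single libraries were left out, and the 1 lower to 0 with a pseudocount of 0.1, to 0 without the filter and to 0 to 1 when single libraries were left out. In *Fyn* KO cells the 2 mitotic members lower came to 1 with the replicate block and to 1 to 2 when single libraries were left out, the 4 transport members higher to 3 to 4, and the 0 lower to 1 with quantile normalization. With the block in *Fyn* KO the calls of *Kifc5b*, *Klc2* and *Kif26a* were lost (adjusted p = 0.0839, 0.0947 and 0.118). The cause of these shifts was not tested. Among the 21 kinesins described in full, none reversed direction with a call under the alternatives run for them; the other kinesins were not followed through every alternative. No kinesin was called between genotypes at day 0 or at day 4 with or without the replicate block, which was not run for the interaction. The tables give no read counts, so what depth limits in low genes could not be computed.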
